A study of Homo sapiens with 9 samples.

Results

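The 40 genes described here belong to the ATF4 stress response and to amino acid supply, and were followed in MDA-MB-231 cells depleted of the aryl hydrocarbon receptor (AHR). They are 40 rows of the 60649 in the count table, chosen by symbol from a fixed list: 11 regulators, 11 biosynthetic enzymes, 8 amino acid transporters, 8 genes of tRNA charging and export, and 2 genes for secreted or surface proteins. The table came from mRNA sequencing of 9 libraries, 3 each for the control vector pLKO-GFP, shAHR#2 and shAHR#3. The titles spell the control PLKO-GFP and its genotype entry reads GFP-PLKO. MDA-MB-231 is an established human line of triple-negative breast cancer, and all libraries share this background and a treatment entry that reads "proliferation". Each shAHR group carries 1 short hairpin construct against AHR, delivered by lentivirus with puromycin selection, and the cells were grown in DMEM with serum. No time after infection is given. The study used the constructs to ask what AHR depletion does to gene expression in these cells. The labels do not say that replicates came from separate cultures, so p-values measure the spread between these samples, which may be technical.

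ATF4 is a transcription factor whose translation increases when the initiation factor eIF2 is phosphorylated, for example by PERK in endoplasmic reticulum stress or by GCN2 when amino acids are scarce. Together with C/EBP partners it binds C/EBP-ATF response elements near genes for amino acid synthesis, amino acid uptake, tRNA charging and feedback control of the response. Because ATF4 is controlled to a large extent by translation, its mRNA need not follow its protein, and no protein was measured here. Proliferating tumour cells use the same genes to keep up the supply of serine, glycine, glutamine, asparagine and essential amino acids.

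Library totals ran from 15991396 to 20374460 counts. Levels are given as CPM (counts scaled to a common library size, as described under the processing), and a call is a Benjamini-Hochberg adjusted p under 0.05 over the 14274 genes tested with edgeR's quasi-likelihood test. AHR itself was at 114 to 121 CPM in the control libraries, 40.4 to 42.5 with shAHR#2 and 44.5 to 52.1 with shAHR#3, so its mean level was 35.3% and 40.5% of control. Of the epithelial markers, KRT8, KRT18, KRT19 and KRT7 were present, and KRT5, KRT14 and KRT17 were at or near 0. The epithelial list also holds EPCAM and CDH1. Its 9 markers summed to 896 to 946 CPM in control, 1044 to 1088 with shAHR#2 and 1216 to 1306 with shAHR#3. VIM, a mesenchymal marker, was at 2615 CPM or more, and its list also holds CD44, ZEB1, FN1 and AXL. These 5 summed to 5569 to 5640 CPM in control, 8457 to 8676 with shAHR#2 and 7003 to 7061 with shAHR#3. Calls were 4 higher and 1 lower under shAHR#2, and 3 higher and 1 lower under shAHR#3. The lower one was CD44, at 801 to 825 CPM in control, 685 to 698 with shAHR#2 and 566 to 590 with shAHR#3. Of the receptor markers, PGR was at 0 and ESR1 reached 0.215 CPM at most. ERBB2, the other receptor marker listed, made up nearly all of the receptor sum. That sum was 60.1 to 64.1 CPM in control, 61.9 to 64.1 with shAHR#2 and 70.1 to 75.7 with shAHR#3. ERBB2 was called higher with shAHR#3, by 0.20, and not called with shAHR#2. Among 7 leukocyte and endothelial markers, CD3E was at 0 in all libraries. The summed level of the 7 was 3.20 to 3.73 CPM in control, 12.5 to 14.5 with shAHR#2 and 13.3 to 15.4 with shAHR#3, most of it PECAM1. The 5 fibroblast markers summed to 14.9 to 17.9, 14.4 to 15.8 and 29.4 to 32.5 CPM, with DCN at 0.0512 CPM in 1 library and at 0 in the others. The part of these markers in the results was not tested.

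The response element is shown first, since it is the sequence that ATF4 and its C/EBP partners bind near genes of this response. Start-site windows from RefSeq on GRCh38.p14, from 250 bases before to 50 after each annotated start, were found for 35 of the 40 genes and searched on both strands for TGATGNAA, which is TTNCATCA when read from the other strand. Of the 35 genes, 13 held it (37.1%), against 4.46% of the 27305 symbols in the table. The list holds many known ATF4 targets, so a high share was built into it. The windows below are 30 bases each, 5′ to 3′ on the gene's strand, with the element in capitals. They show that genes which moved in opposite directions after AHR depletion carry the same letters.

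ASNS: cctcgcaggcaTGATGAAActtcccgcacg
SLC1A4: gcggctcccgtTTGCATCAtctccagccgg
SLC7A1: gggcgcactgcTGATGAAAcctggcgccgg
SLC3A2: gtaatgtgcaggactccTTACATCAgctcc
GARS1: ttacgcggcgaTTTCATCAtgctccgagcc
NARS1: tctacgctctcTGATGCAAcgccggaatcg
CHAC1: ctcccctgccgTTGCATCActcctgccagg
SLC38A1: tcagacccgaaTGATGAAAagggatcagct
SLC1A5: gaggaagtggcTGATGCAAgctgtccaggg
MARS1: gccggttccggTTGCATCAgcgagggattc

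The ASNS window is chr7:97872458-97872487 on the minus strand, and its element begins 68 bases before the start site. SLC1A4 (chr2:64989381-64989410, plus strand), SLC7A1 (chr13:29595663-29595692, minus), SLC3A2 (chr11:62881719-62881748, plus), GARS1 (chr7:30594834-30594863, plus) and NARS1 (chr18:57621804-57621833, minus) belong to genes called lower with both constructs. CHAC1 (chr15:40953251-40953280, plus), SLC38A1 (chr12:46266502-46266531, minus), SLC1A5 (chr19:46784893-46784922, minus) and MARS1 (chr12:57488053-57488082, plus) belong to genes called higher with both. Of the 13 genes with the element, 4 were called higher with both constructs and 5 lower with both; of the 22 without it, 5 and 6. The core AHR binding letters TNGCGTG, searched on both strands, were in the windows of 5 of the 35 genes, SLC1A4, STC2, ASNS, CEBPG and SLC1A5, against 6.69% of all symbols. SLC1A4, ASNS, CEBPG and SLC1A5 held both motifs in their windows, and STC2 only the AHR letters. The bases of the 2 motifs did not overlap. A match of letters is a description and not a binding site.

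Of the 40 genes, 38 had enough counts to be tested. With shAHR#2, 27 were called, 15 higher (background 32.6%) and 12 lower (background 33.2%), or 71.1% of the 38 against a background of 65.8% of all genes tested. With shAHR#3, 31 were called, 13 higher (background 26.9%) and 18 lower (background 27.5%), or 81.6% against 54.4%. For the mean of both constructs 26 were called, or 68.4% against 64.3%, with 13 higher (background 31.5%) and 13 lower (background 32.9%). Of the 26, PHGDH, VLDLR and CHAC1 passed an absolute log2 fold change of 1 (background 8.25%). The median log2 fold change of the 38 genes was 0.10 with shAHR#2 and −0.07 with shAHR#3, against 0.00 for all genes tested in each comparison. The genes were therefore split between both directions. They were counted more deeply than most, with a median of 1701 counts against 408 for all genes tested, and this makes small changes easier to call. Their median absolute log2 fold change was 0.29 with shAHR#2, against 0.32 for all genes, and 0.23 with shAHR#3, against 0.23. In bulk RNA, less RNA per cell and fewer cells that express a gene cannot be told apart.

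In all, 10 genes were called higher with both constructs (background 21.9%): PHGDH, VLDLR, CHAC1, SLC38A2, SLC38A1, EIF2AK3, SLC1A5, XPOT, SHMT2 and MARS1. Another 11 were called lower with both (background 22.6%): SLC1A4, TRIB3, NARS1, PSAT1, SARS1, SLC7A5, EPRS1, SLC7A1, EIF2AK4, GARS1 and SLC3A2. The remaining genes called with both, 3 in number, had opposite directions: CEBPB, CTH and MTHFD1L (background 2.03%). Few changes were large: PHGDH, VLDLR and CHAC1 were called at an absolute log2 fold change of at least 1 with shAHR#2 (background 11.8%), and PHGDH and VLDLR with shAHR#3 (background 6.73%). Libraries of shAHR#2 lay wholly above the control libraries for 16 genes and wholly below for 12 (background 33.8% and 34.4%), and those of shAHR#3 for 13 and 15 (background 29.2% and 29.5%). Both comparisons share the same 3 control libraries.

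**Figure D1:**
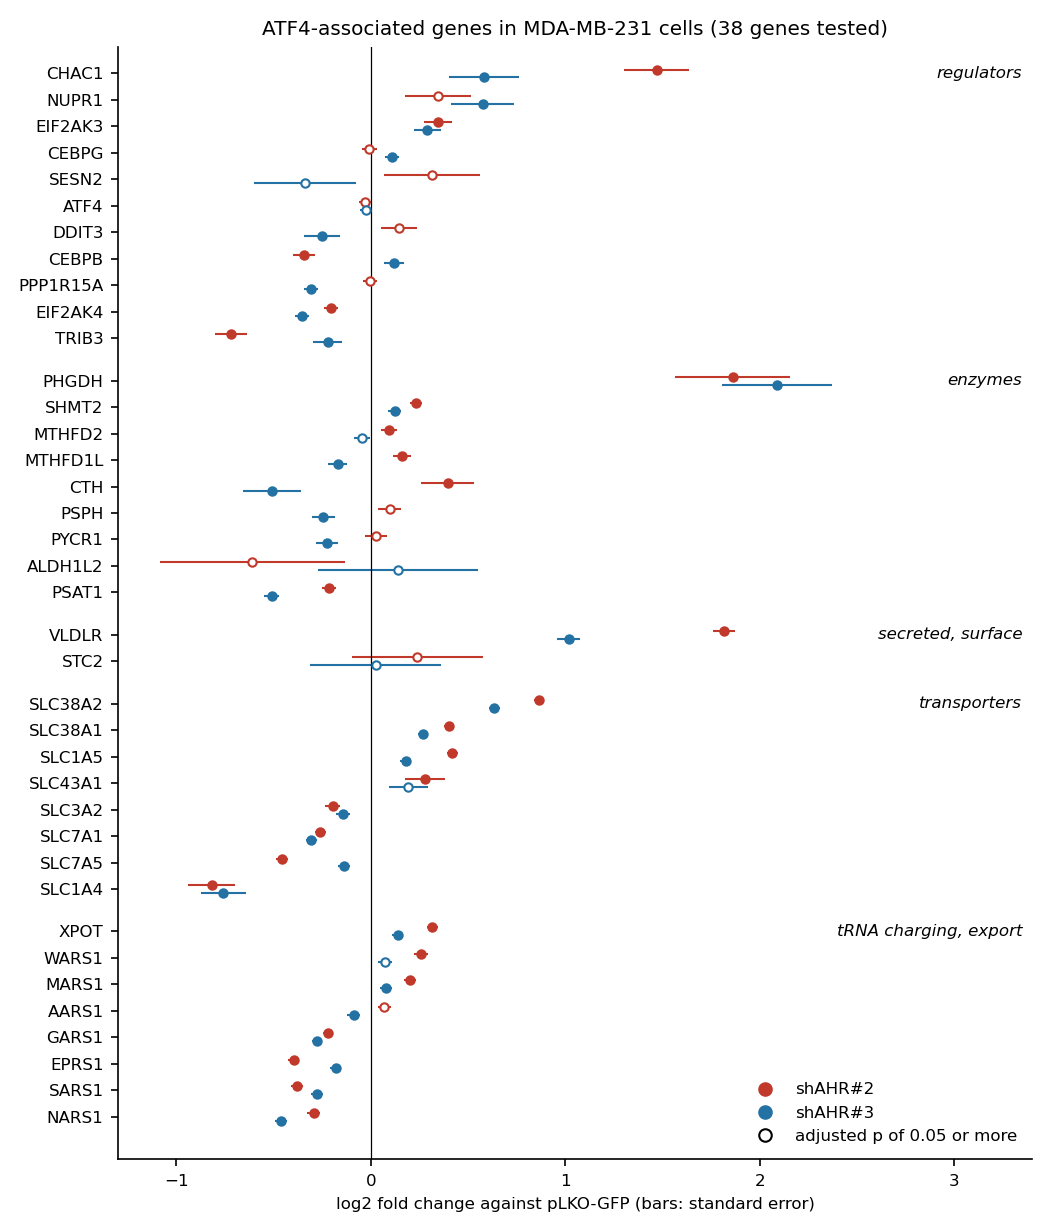
Log2 fold change against pLKO-GFP of the 38 genes tested, by role, with shAHR#2 in red and shAHR#3 in blue; bars are standard errors of the fit on 3 libraries per group, and open circles have an adjusted p of 0.05 or more. PHGDH, VLDLR and CHAC1 stand furthest to the right, SLC1A4 and TRIB3 furthest to the left among called genes, and ATF4 lies at −0.03 with both constructs.

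The transcript of ATF4 (ENSG00000128272.17, chr22:39519695-39522683 on GRCh38, plus strand) was at 258, 248 and 246 CPM in the control libraries, 243, 249 and 245 with shAHR#2, and 235, 256 and 247 with shAHR#3. The 3 groups overlapped. Its log2 fold change was −0.03 ± 0.03 (SE) with either construct, with adjusted p of 0.42 and 0.47. Of the kinases that act on eIF2 upstream of it, EIF2AK3, the gene of the endoplasmic reticulum sensor PERK, was at 21.0, 21.7 and 21.3 CPM in control, 27.7, 27.3 and 26.2 with shAHR#2, and 27.2, 26.7 and 24.4 with shAHR#3. It was higher in all 6 AHR-depleted libraries, with log2 fold changes of 0.35 ± 0.07 (adjusted p 4.61e-05) and 0.29 ± 0.07 (adjusted p 0.000455). EIF2AK4, the gene of the amino acid sensor GCN2, fell by 0.20 (adjusted p 1.13e-05) and 0.35 (adjusted p 2.57e-10) in log2 terms. PPP1R15A, whose product directs a phosphatase to eIF2, was at 97.5 to 102 CPM in control and shAHR#2 libraries and at 80.1 to 81.8 with shAHR#3, a fall of 0.31 in the latter alone (adjusted p 4.49e-09). The difference between the constructs was itself called for PPP1R15A, at −0.30 ± 0.04 (adjusted p 1.61e-08).

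Among the transcription factors and effectors downstream, DDIT3, the gene of the proapoptotic factor CHOP, was at 15.9, 15.5 and 19.9 CPM in control, 20.4, 17.5 and 18.5 with shAHR#2, and 14.0, 13.5 and 15.6 with shAHR#3. The shAHR#2 libraries overlapped with control and 1 shAHR#3 library did. DDIT3 was not called for shAHR#2, at 0.14 ± 0.09 (adjusted p 0.16), but was lower under shAHR#3, at −0.25 ± 0.09 (adjusted p 0.0204). That call was lost without control replicate 3 (−0.13, adjusted p 0.29), without shAHR#3 replicate 1 (−0.23, adjusted p 0.0628) or without shAHR#3 replicate 2 (−0.21, adjusted p 0.0846). DDIT3 shares 27.2% of its exon bases with MARS1 on the opposite strand, and whether the counting used strand is not given in the sources used here.

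TRIB3, a pseudokinase induced in the response that restrains ATF4 and CHOP, was at 22.7, 21.6 and 20.3 CPM in control, 13.1, 12.4 and 13.7 with shAHR#2, and 19.1, 17.2 and 18.9 with shAHR#3. All 6 AHR-depleted libraries were below control, and the shAHR#2 libraries were the lowest. For TRIB3 the fall was 0.72 ± 0.08 (adjusted p 1.07e-09) under shAHR#2, against 0.22 ± 0.08 (adjusted p 0.013) under shAHR#3. The shAHR#3 call was lost without control replicate 1 (−0.19, adjusted p 0.0698) or without shAHR#3 replicate 2 (−0.18, adjusted p 0.0764).

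CHAC1, which degrades glutathione and is a known target of the ATF4 and CHOP branch, moved the other way. It was at 2.09, 3.05 and 2.79 CPM in control, 8.26, 6.29 and 7.47 with shAHR#2, and 3.70, 3.53 and 4.69 with shAHR#3. Libraries of both constructs lay above all control libraries and did not overlap with each other. The log2 fold change was 1.47 ± 0.17 (adjusted p 7.22e-10) under shAHR#2, against 0.58 ± 0.18 (adjusted p 0.00591) under shAHR#3, the latter not called without shAHR#3 replicate 3 (0.44, adjusted p 0.0591). These levels rest on 37 to 154 counts per library.

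CEBPB and CEBPG encode C/EBP partners of ATF4. CEBPB was at 43.3, 42.7 and 42.0 CPM in control, 33.9, 32.0 and 34.9 with shAHR#2, and 45.3, 47.2 and 46.6 with shAHR#3. It was below control with one construct and slightly above with the other: −0.34 ± 0.06 (adjusted p 1.1e-06) and 0.12 ± 0.05 (adjusted p 0.0454). The rise with shAHR#3 was lost in DESeq2 (adjusted p 0.0972), with no filter on low counts (adjusted p 0.103), with the replicate number as a block (adjusted p 0.0512), without control replicate 1, 2 or 3 (0.13, 0.12 and 0.11; adjusted p 0.06, 0.0907 and 0.127) and without shAHR#3 replicate 2 or 3 (0.11 and 0.12; adjusted p 0.128 and 0.077). CEBPG was called only with shAHR#3, at 0.11 ± 0.04 (adjusted p 0.0142), and that call was lost without control replicate 1 (0.10, adjusted p 0.0589) or shAHR#3 replicate 2 (0.08, adjusted p 0.111). NUPR1, a stress-induced nuclear protein gene, was at 3.34 to 5.08 CPM in control and 5.35 to 6.88 with shAHR#3, where it was higher by 0.57 ± 0.16 (adjusted p 0.00274); it was not called with shAHR#2 (0.34 ± 0.17, adjusted p 0.0749). SESN2, whose product senses leucine and restrains mTORC1, was at 1.75, 1.45 and 1.67 CPM in control, 2.20, 1.67 and 2.15 with shAHR#2, and 1.59, 1.18 and 1.07 with shAHR#3. Neither construct differed from control beyond the threshold for SESN2 (adjusted p 0.269 and 0.281).

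**Figure D2:**
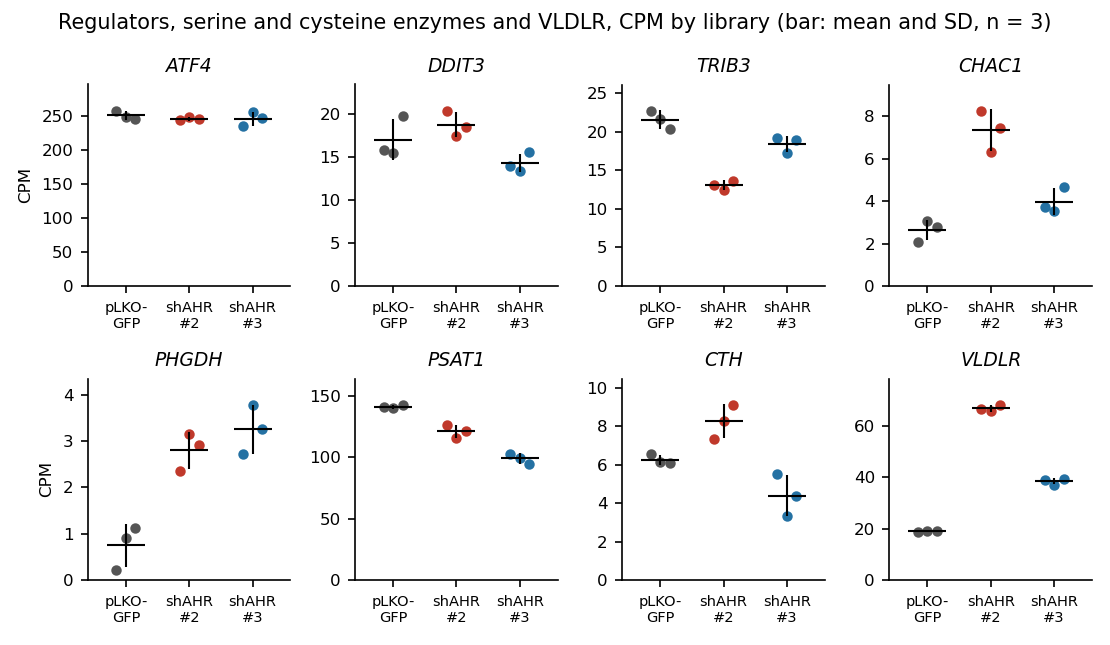
CPM in each of the 9 libraries (points) with the mean and SD of each group of 3 (black bars), on linear axes from 0, for 4 regulators, 3 enzymes and VLDLR. ATF4 is level across the groups at 235 to 258 CPM, TRIB3 and PSAT1 are lower and CHAC1, PHGDH and VLDLR higher in all AHR-depleted libraries, and CTH lies above control with shAHR#2 and below with shAHR#3.

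Of 11 biosynthetic enzymes, 9 were tested, and the serine pathway showed opposite changes in its first and second step. PHGDH (chr1:119648411-119744218, plus strand), which commits the glycolytic intermediate 3-phosphoglycerate to serine, was at 0.226, 0.899 and 1.11 CPM in control, 2.36, 3.15 and 2.91 with shAHR#2, and 2.73, 3.79 and 3.27 with shAHR#3. All 6 AHR-depleted libraries were above control, with log2 fold changes of 1.86 ± 0.30 (adjusted p 1.07e-06) and 2.09 ± 0.28 (adjusted p 7.02e-08). The gene stayed scarce: counts were 4, 18 and 22 in the control libraries and 44 to 74 in the others. The control libraries alone would not have met the filter's minimum count of 10, so PHGDH was tested only because of the AHR-depleted libraries. Leaving out 1 library moved the PHGDH values between 1.46 and 2.25 and between 1.69 and 2.47. PSAT1, the next enzyme, was at 141, 140 and 143 CPM in control, 127, 116 and 122 with shAHR#2, and 103, 99.4 and 94.8 with shAHR#3, so the 3 groups did not overlap. PSAT1 fell by 0.22 ± 0.04 and 0.51 ± 0.04 (adjusted p 2.56e-06 and 1.05e-14). Over all annotated exons (9187 and 2206 bases), PHGDH was at 0.08 RPKM and PSAT1 at 64.0 RPKM in control, and at 0.36 and 44.9 with shAHR#3. PSPH, the last step, was lower with shAHR#3 by 0.24 (adjusted p 0.000712) and not called with shAHR#2 (0.10, adjusted p 0.15). The tested genes around PSPH on the chromosome had medians of −0.32 with shAHR#2 and −0.22 with shAHR#3. Relative to them PSPH was at 0.41 and −0.02, so its fall with shAHR#3 hardly exceeded theirs.

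In mitochondrial folate metabolism, which passes the serine carbon on, SHMT2 was higher with both constructs, by 0.23 ± 0.03 and 0.12 ± 0.03. MTHFD1L rose under shAHR#2, by 0.16 ± 0.05 (adjusted p 0.00311), but fell under shAHR#3, by 0.17 ± 0.05 (adjusted p 0.00255). The tested genes around it on the chromosome had medians of 0.18 and 0.10, so its rise under shAHR#2 did not exceed theirs. MTHFD2 was called with shAHR#2 at 0.09 ± 0.04 (adjusted p 0.0483), a call lost in DESeq2 (adjusted p 0.08) and without control replicate 1 or 2 (0.07 and 0.10; adjusted p 0.208 and 0.0585) or shAHR#2 replicate 1 or 2 (0.08 and 0.08; adjusted p 0.146 and 0.133). ALDH1L2, at 0.257 to 1.28 CPM, was not called. PYCR1, which makes proline, was lower with shAHR#3 alone, by 0.22 ± 0.06 (adjusted p 0.000833), and the difference between constructs was called at −0.25 ± 0.06 (adjusted p 0.000403).

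CTH, which releases cysteine from cystathionine, was at 6.55, 6.14 and 6.08 CPM in control, 7.35, 8.28 and 9.11 with shAHR#2, and 5.50, 3.33 and 4.35 with shAHR#3. The 3 groups did not overlap. Under shAHR#2 the gene was higher by 0.39 ± 0.14 (adjusted p 0.0113), whereas it fell by 0.51 ± 0.15 (adjusted p 0.00357) under shAHR#3. Without shAHR#2 replicate 3 the former was 0.32 (adjusted p 0.0669), and without shAHR#3 replicate 2 the latter was −0.35 (adjusted p 0.0531). CBS, the preceding enzyme, had 0 counts in every library, as did its near-identical copy CBSL. How reads shared by both copies were counted is not given, so these zeros are no measure of its expression.

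ASNS, the asparagine synthetase gene and a defining ATF4 target, could not be read from this table. It had 6, 4 and 5 counts in the control libraries, 10, 7 and 2 with shAHR#2, and 6, 3 and 6 with shAHR#3, or 0.127 to 0.536 CPM, and did not pass the filter. In GENCODE release 44 a second gene on the same strand, ENSG00000284707, covers 49.3% of the exon bases of ASNS (chr7:97851677-97872542, minus strand), and 99.5% of the 50-base windows of the canonical ASNS transcript also occur in transcripts of that gene. That gene had 16 to 23 counts per library. Reads that fall in both genes can be left uncounted, and the handling of such reads is not given in the sources used here, so the low ASNS count is no measure of its expression and its change with AHR depletion was not tested.

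VLDLR, a lipoprotein receptor gene induced by ATF4 in stressed cells, had the smallest error of the large changes. It was at 18.9, 19.1 and 19.0 CPM in control, 66.5, 65.7 and 68.3 with shAHR#2, and 38.9, 37.1 and 39.4 with shAHR#3. Groups did not overlap, and VLDLR rose by 1.81 ± 0.06 (adjusted p 3.97e-26) under shAHR#2, against 1.02 ± 0.06 (adjusted p 2.66e-17) under shAHR#3. STC2, a secreted glycoprotein gene, had 11 to 29 counts per library and was not called with either construct (adjusted p 0.552 and 0.956).

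All 8 amino acid transporter genes were tested: 3 rose with both constructs (background 21.9%), 4 fell with both (background 22.6%) and SLC43A1 was called with shAHR#2 only. SLC38A2 (chr12:46358188-46372773, minus strand) encodes SNAT2, the adaptive sodium-coupled carrier of small neutral amino acids. It was at 522, 547 and 521 CPM in control, 976, 967 and 955 with shAHR#2, and 838, 836 and 795 with shAHR#3. All 6 AHR-depleted libraries were above control without overlap, by 0.87 ± 0.03 and 0.64 ± 0.03 (adjusted p 3.31e-26 and 1.32e-21). SLC38A1, which encodes the related glutamine carrier SNAT1, was at 640, 662 and 630 CPM in control, 854, 852 and 843 with shAHR#2, and 770, 795 and 760 with shAHR#3. Its rise was 0.40 ± 0.03 and 0.27 ± 0.03 (adjusted p 2.46e-16 and 3.03e-11). SLC1A5, the gene of the glutamine exchanger ASCT2, was at 230 to 235 CPM in control, 308 to 318 under shAHR#2 and 255 to 271 under shAHR#3, and rose by 0.42 ± 0.03 and 0.18 ± 0.03. SLC43A1, a facilitated carrier of large neutral amino acids, was called with shAHR#2 only (0.28 ± 0.10, adjusted p 0.0165), and that call was lost without control replicate 1 (0.21, adjusted p 0.0928) or shAHR#2 replicate 1 (0.24, adjusted p 0.0728). With shAHR#3 its value was 0.19 ± 0.10 (adjusted p 0.108).

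SLC7A5 (ENSG00000103257.9, chr16:87830023-87869507, minus strand) encodes LAT1, the exchanger through which leucine and tryptophan enter the cell. It was at 512, 536 and 534 CPM in control, 381, 400 and 371 with shAHR#2, and 461, 462 and 514 with shAHR#3. The shAHR#2 libraries were lowest, and 1 shAHR#3 library reached the control range. SLC7A5 fell by 0.46 ± 0.03 (adjusted p 4.19e-15) and by 0.14 ± 0.03 (adjusted p 0.000359). SLC3A2, the gene of its obligate heavy chain, was at 191 to 211 CPM in control, 170 to 178 with shAHR#2 and 174 to 193 with shAHR#3, with falls of 0.20 ± 0.04 and 0.14 ± 0.04. SLC7A1, the gene of the cationic amino acid carrier CAT1, was at 294 to 301 CPM in control and 233 to 252 in the AHR-depleted libraries, and fell by 0.26 ± 0.03 and 0.31 ± 0.03. SLC1A4, which encodes ASCT1, a carrier of alanine, serine and cysteine, was at 11.2, 11.5 and 9.62 CPM in control, 6.11, 7.13 and 5.12 with shAHR#2, and 6.33, 6.09 and 6.69 with shAHR#3. Its fall of 0.82 ± 0.12 and 0.76 ± 0.12 was the largest among the 11 genes lower with both constructs, and the constructs did not differ beyond the threshold (0.06 ± 0.13, adjusted p 0.757).

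**Figure D3:**
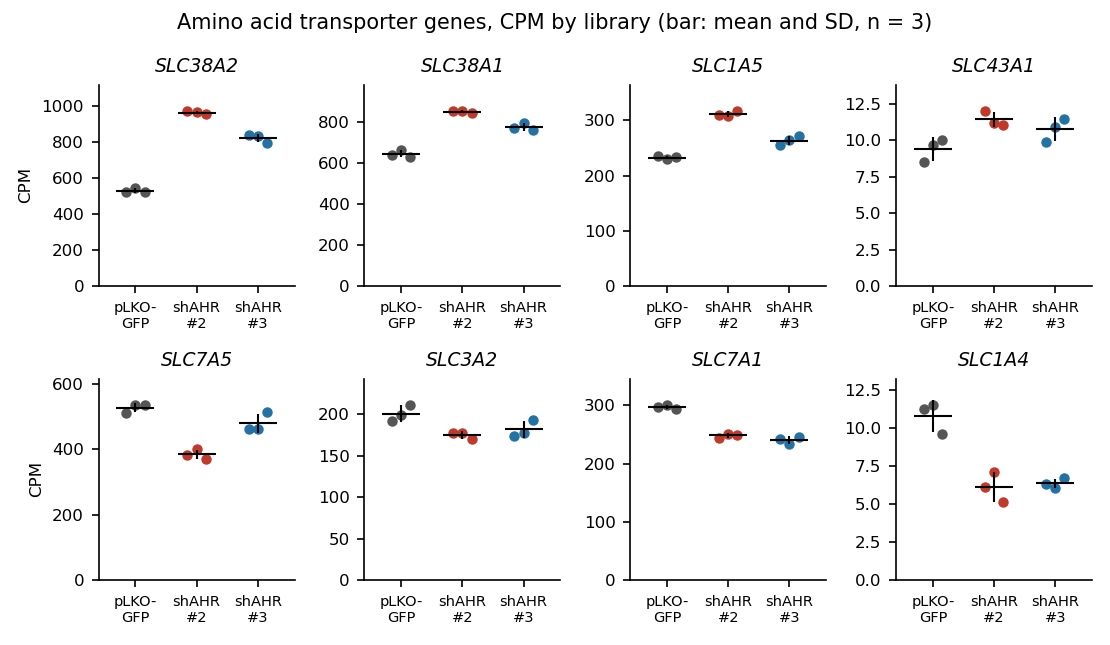
CPM of the 8 amino acid transporter genes in each of the 9 libraries (points) with the mean and SD of each group of 3 (black bars), on linear axes from 0. The upper row holds the genes called higher with both constructs, among them SLC38A2 at 521 to 547 CPM in control and 795 to 976 in depleted cells, and SLC43A1, whose shAHR#3 libraries overlap control, and the lower row those called lower with both, ending with SLC1A4 at 9.62 to 11.5 CPM in control and 5.12 to 7.13 in depleted cells.

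In RPKM over all annotated exons, SLC7A5 ranked highest of the 40 in control cells at 111, followed by ATF4 at 96.0 and SLC38A2 at 81.4. This order depends on the annotation, since the exon length is 4764 bases for SLC7A5 and 17366 for GARS1. By mean CPM in control, SLC38A1 was highest at 644, with SLC38A2 at 530 and SLC7A5 at 527. With shAHR#2, SLC38A2 was at 148 RPKM, ATF4 at 94.1, SLC1A5 at 93.5, SLC38A1 at 84.8 and SLC7A5 at 80.6. The order of SLC38A2 and SLC7A5 was also changed with shAHR#3, at 126 and 101 RPKM.

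Of the 7 tRNA charging genes, 4 were lower with both constructs (background 22.6%) and 1, MARS1, was higher with both (background 21.9%), as was the tRNA exporter gene XPOT. NARS1, for asparagine, was at 149, 155 and 150 CPM in control, 124, 125 and 122 with shAHR#2, and 112, 111 and 107 with shAHR#3. SARS1, for serine, was at 171, 174 and 174 CPM, then 133, 134 and 131, then 142, 140 and 146. EPRS1, for glutamate and proline, was at 366, 360 and 354 CPM, then 281, 267 and 272, then 313, 324 and 315. For each of these 3 genes the groups did not overlap. NARS1 fell by 0.29 ± 0.03 and 0.46 ± 0.03, SARS1 by 0.38 ± 0.03 and 0.28 ± 0.03, and EPRS1 by 0.40 ± 0.03 and 0.18 ± 0.03, with adjusted p from 2.12e-15 to 4.42e-07. GARS1, for glycine, fell by 0.22 and 0.28.

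MARS1, for methionine, was higher by 0.20 ± 0.03 and 0.08 ± 0.03. The shAHR#3 call of MARS1 (adjusted p 0.0388) was lost in DESeq2 (adjusted p 0.0715) and without control replicate 1 or 3 (0.08 and 0.06; adjusted p 0.0713 and 0.166) or shAHR#3 replicate 3 (0.06, adjusted p 0.127). XPOT, the nuclear exporter of tRNA, was at 372 to 395 CPM in control, 477 to 480 with shAHR#2 and 416 to 432 with shAHR#3, higher by 0.32 ± 0.03 and 0.14 ± 0.03. WARS1, for tryptophan, was called with shAHR#2 only, at 0.26 ± 0.04 (adjusted p 7.64e-08; with shAHR#3 0.07 ± 0.04, adjusted p 0.0822). AARS1, for alanine, was called with shAHR#3 only (−0.09 ± 0.03, adjusted p 0.0197), a call lost without control replicate 3 (−0.09, adjusted p 0.0555) or shAHR#3 replicate 2 (−0.08, adjusted p 0.0714).

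The other synthetase genes give the setting for these values. Of 17 further genes of cytosolic synthetases and their scaffold, 12 were lower and 1 higher with shAHR#2 (median −0.20), and 13 were lower and none higher with shAHR#3 (median −0.19), with the background in the lower direction at 33.2% and 27.5%. Averaged over both constructs, 12 were lower and none higher. TARS3, a second threonyl-tRNA synthetase, fell by 1.41 and 0.87, TARS1 by 0.58 and 0.54, and RARS1 by 0.66 and 0.38. Of 16 mitochondrial synthetase genes tested, 9 were lower and 1 higher with shAHR#2 (median −0.24), and 4 were lower and 1 higher with shAHR#3 (median −0.07). IARS2, CARS2 and FARS2 were lower for the mean of both, IARS2 by 0.91 and 0.41 with the single constructs and CARS2 by 0.77 and 0.54. FARS2 was lower by 0.34 with shAHR#2 and not called with shAHR#3 (adjusted p 0.057).

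**Figure D4:**
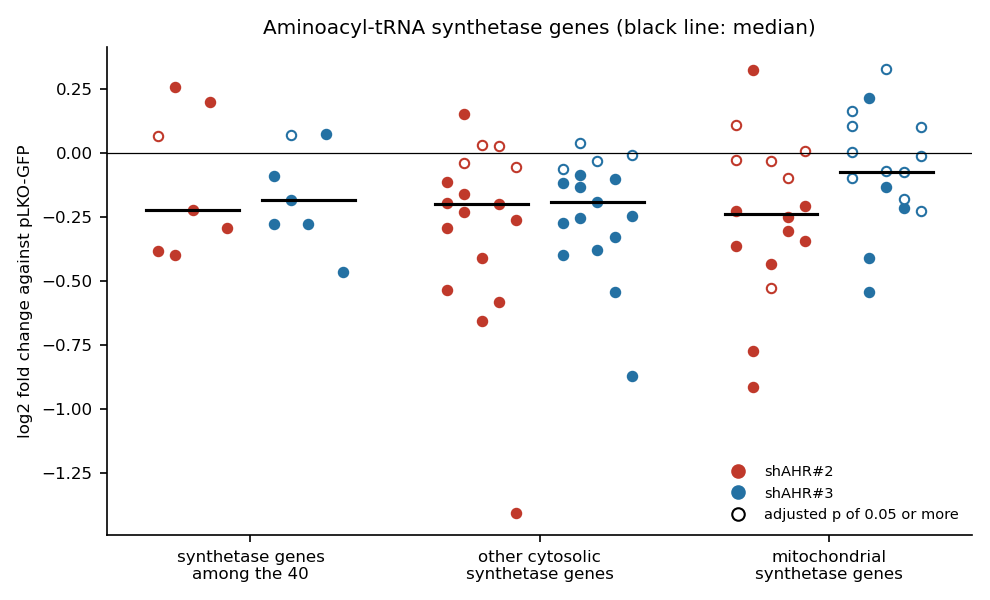
Log2 fold change against pLKO-GFP of the 7 synthetase genes among the 40, 17 other cytosolic synthetase and scaffold genes, and 16 mitochondrial synthetase genes, with shAHR#2 in red and shAHR#3 in blue. Each point is a gene, open points have an adjusted p of 0.05 or more, and black lines are medians. Most cytosolic genes lie below 0 with both constructs, with medians of −0.20 and −0.19 for the 17.

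The constructs were compared directly, since several genes moved further with one than with the other. Of the 38 genes, 27 were called between shAHR#3 and shAHR#2, 71.1% against a background of 42.3%, and 21 of these were lower with shAHR#3 (background 20.4%). The median difference was −0.14, against 0.01 for all genes tested, and none passed an absolute log2 difference of 1 (background 3.71%). Of 9 enzymes tested, 7 were lower with shAHR#3 and none higher. Among called genes, the 4 largest differences in the lower direction were CTH (−0.90 ± 0.14), CHAC1 (−0.89 ± 0.15), VLDLR (−0.80 ± 0.05) and SESN2 (−0.65 ± 0.26, adjusted p 0.0377). The SESN2 difference was lost in DESeq2 (adjusted p 0.085), without shAHR#2 replicate 1 or 3 (−0.58 and −0.60; adjusted p 0.136 and 0.104) and without shAHR#3 replicate 2 or 3 (−0.60 and −0.54; adjusted p 0.105 and 0.142). Among called genes, the 4 largest in the higher direction were TRIB3 (0.50 ± 0.08), CEBPB (0.46 ± 0.05), SLC7A5 (0.32 ± 0.03) and EPRS1 (0.22 ± 0.03). Among the 10 genes higher with both constructs, 9 had the larger change with shAHR#2, and among the 11 lower with both, 6 had. Larger changes with shAHR#2 were not particular to these genes. The median absolute log2 fold change of all genes tested was 0.32 with shAHR#2 and 0.23 with shAHR#3. The share over all genes called alike was not computed. AHR was also lower with shAHR#2 than with shAHR#3, with a log2 difference of 0.19 ± 0.05 (adjusted p 0.00283), and its part in these differences was not tested.

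Changes in these libraries ran along chromosomes, and each gene was set beside its neighbours. For every gene the median log2 fold change of the 50 tested genes on each side, fewer at chromosome ends, was subtracted. Of the 10 genes higher with both constructs, 5 lie on chromosome 12 (SHMT2, XPOT, MARS1, SLC38A1 and SLC38A2), where the median of 794 tested genes was 0.22 with shAHR#2 and 0.17 with shAHR#3 and 41.2% of the genes were higher with both. SLC38A2 exceeded its neighbours by 0.63 and 0.44, and SLC38A1 by 0.16 and 0.07. SHMT2 was at −0.02 and −0.09, MARS1 at −0.07 and −0.14, and XPOT at 0.04 and −0.06 relative to theirs. Away from chromosome 12, PHGDH (1.67 and 1.99), VLDLR (1.67 and 0.97) and CHAC1 (1.44 and 0.58) stood above their neighbours by nearly their whole change.

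Among the genes lower with both constructs, TRIB3 had neighbours at −0.46 and −0.24 and differed from them by −0.26 and 0.01. EPRS1 differed by −0.02 and 0.00 and NARS1 by −0.06 and −0.21, while GARS1 lay 0.24 above its neighbours with shAHR#2 and at −0.02 with shAHR#3. SLC1A4 (−0.78 and −0.67), SLC7A5 (−0.54 and −0.21), SARS1 (−0.49 and −0.30), SLC7A1 (−0.34 and −0.33) and PSAT1 (−0.30 and −0.54) were below neighbours with medians from −0.09 to 0.11. Relative to neighbours, 7 of the 10 higher genes and 8 of the 11 lower genes kept their direction with both constructs. These genes had been picked by that direction, and no share over all genes called alike was computed. The counts are therefore descriptive only. The other cytosolic synthetases include 4 on chromosome 5 (HARS1, LARS1, RARS1 and TARS1), whose neighbours were at −0.36 to −0.62 with shAHR#2. Relative to them, LARS1 and TARS1 were at 0.16 and 0.04 with shAHR#2, and HARS1 and RARS1 at −0.05 and −0.14. With shAHR#3 the differences were −0.08 for LARS1, −0.16 for TARS1, −0.01 for HARS1 and −0.15 for RARS1.

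**Figure D5:**
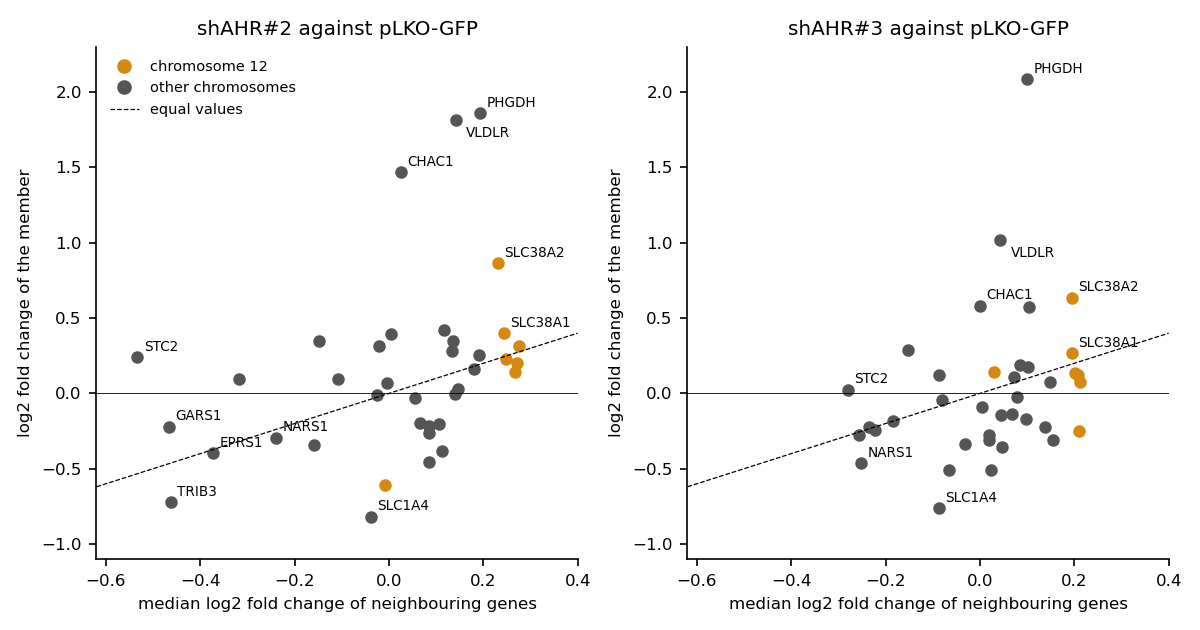
Log2 fold change of each of the 38 genes (vertical axis) against the median log2 fold change of the up to 100 tested genes around it (horizontal axis), with shAHR#2 on the left and shAHR#3 on the right; genes on chromosome 12 are orange and the dashed line marks equal values. PHGDH, VLDLR, CHAC1 and SLC38A2 lie far above the line and SLC1A4 far below it, while EPRS1 lies on it at −0.40 with shAHR#2.

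Other branches of the stress response were read from lists of genes outside the 40. Of 23 tested genes of endoplasmic reticulum chaperones and the ATF6 and XBP1 branches, 16 were higher and 2 lower when both constructs were averaged, with a median of 0.27 (background in the higher direction 31.5%, median of all genes 0.00). XBP1, the transcription factor of one branch, was at 66.5 to 75.1 CPM in control, 129 to 132 with shAHR#2 and 106 to 113 with shAHR#3, with a rise of 0.86 and 0.60. EDEM1, which removes misfolded glycoproteins, rose by 0.77 and 0.35. DNAJB9, an endoplasmic reticulum cochaperone, rose by 0.77 with shAHR#2 and was at 0.16 with shAHR#3 (adjusted p 0.073). The 2 genes lower were ATF6 and ERN1, the sensors of these branches, named after their values were seen.

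Of 23 other genes tied to the integrated stress response, 8 were higher and 8 lower when both constructs were averaged (background 31.5% and 32.9%). Their median was −0.03. CEBPA, another C/EBP factor, was at 0.456 to 0.899 CPM in control and at 3.65 to 5.92 in AHR-depleted libraries, a rise of 2.62 ± 0.24 and 3.08 ± 0.22. Its control counts were 11, 18 and 9, so CEBPA also passed the filter only because of the AHR-depleted libraries. GPT2, a mitochondrial alanine transaminase and ATF4 target, rose by 0.77 and 0.24. ATF3, an early stress factor, was lower for the mean of both by 0.51 (adjusted p 0.00676), by 0.61 with shAHR#2, and was not called with shAHR#3 (−0.40, adjusted p 0.0643).

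Of 17 other amino acid transporters tested, 7 were higher and 4 lower by that average (background 31.5% and 32.9%). SLC1A1, a glutamate and cysteine carrier, rose by 2.38 ± 0.15 and 0.77 ± 0.17, SLC43A2 by 0.70 and 1.27, and SLC38A4, which lies on chromosome 12 beside SLC38A1 and SLC38A2, by 0.90 and 0.47. Of 22 further enzymes of serine, folate, proline, glutamine and related metabolism, 14 were lower and 3 higher (background in the lower direction 32.9%), with a median of −0.21. GLUL, which makes glutamine, was at 77.1 to 79.5 CPM in control and 20.3 to 24.0 under shAHR#2, and fell by 1.82 and 0.62 with the single constructs. AHCY, which clears S-adenosylhomocysteine, fell by 1.03 and 0.36. ASS1, which makes argininosuccinate, was at 4.69 to 5.01 CPM in control and 11.8 to 14.4 in the AHR-depleted libraries, a rise of 1.52 and 1.47.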

How the data were processed

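RNA sequencing was available for 9 libraries of MDA-MB-231 cells (3 pLKO-GFP, 3 shAHR#2 and 3 shAHR#3). The authors prepared stranded mRNA libraries, used STAR for alignment to GRCh38.p13 and, per the submitters' processing notes, featureCounts of Subread. The values they deposited are raw counts per gene, with no normalization. Annotation release, strand setting and handling of reads in overlapping genes are not given in the sources used here. No column of samples was left unused (0), and 0 rows named no gene.

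Counts were analysed in R 4.3.3 with edgeR 4.0.16: filterByExpr (minimum count 10, total 15) kept 14274 of 60649 genes, libraries were scaled by TMM, and the quasi-likelihood test was fitted once to the 9 libraries with 1 mean per group and no block. Standard errors were computed as the log2 fold change over the square root of F. CPM were taken with edgeR from the TMM-scaled library sizes. The biological coefficient of variation was 2.96%. RPKM used the union of all annotated exons of each gene in GENCODE release 44, which can exceed the length of its mRNA. The limit for a count of 0 is 3 counts; it covers counting error only, since reads carry no molecular identifiers. DESeq2 1.42.0 and the other alternatives are given in the closing section.

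The 40 genes and all other lists were chosen with earlier results of these data known. Values in every library are given for ASNS, SLC7A5, ATF4 and DDIT3, for the 6 largest rises and 6 largest falls among genes called alike with both constructs, and for the 4 largest differences in each direction between constructs; other genes are given by range and fold change, and other lists by up to 3 called genes. The comparison with neighbouring genes and the search for sequence letters were chosen after the data were seen.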

Additional observations from a re-analysis of the deposited data

Results flagged for a closer look

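The 3 genes CEBPB, CTH and MTHFD1L moved in opposite directions with the 2 constructs, with the difference between constructs itself past the threshold in edgeR. CEBPB was higher with shAHR#3 than with shAHR#2 by 0.46 ± 0.05 on the log2 scale (adjusted p 4.66e-09). CTH was lower with shAHR#3, at −0.90 ± 0.14 (adjusted p 2.35e-06). MTHFD1L was lower with shAHR#3, at −0.33 ± 0.05 (adjusted p 3.58e-07), from 58.9 to 60.9 CPM with shAHR#2 and 45.9 to 49.4 with shAHR#3, beside 52.1 to 55.9 in control. The CEBPB call with shAHR#3 and the CTH calls with both constructs were each lost when a single library was left out, as given above. Relative to neighbouring genes, MTHFD1L was at −0.02 with shAHR#2 and −0.27 with shAHR#3, so it no longer moved in opposite directions. CTH was at 0.39 and −0.44 and CEBPB at −0.18 and 0.21 relative to theirs.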

How the results depend on the processing

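The member counts of 27 (shAHR#2), 31 (shAHR#3), 26 (mean of both) and 27 (between constructs), and the 10 higher and 11 lower with both, changed by over 1.5 times only when an absolute log2 fold change of at least 1 was also asked for: 3, 2, 3, 0, 2 and 0. Leaving out 1 library gave 26 to 28, 25 to 31, 25 to 27, 25 to 27, 8 to 11 and 10 to 11. DESeq2 gave 26, 29, 25 and 26. With the replicate number as a block the counts were 27, 30, 26 and 27; same-numbered libraries correlated at 0.003 to 0.058 after group means were removed, under 0.1, so the numbers were not taken to pair samples, although 9 of 9 libraries correlated best with their own number. The CEBPB call with shAHR#3 was lost under the block (adjusted p 0.0512).

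Of 152 gene results, 111 were called; 17 of these were lost without some library and 0 changed sign in any setting. Signs of uncalled values turned for ATF4 between constructs with DESeq2 (−0.0038) or its size factors (−0.0038), and when 1 library was left out. With shAHR#2 these ran from −0.0243 to 0.0130 for PPP1R15A, −0.00986 to 0.0504 for PYCR1, −0.0216 to 0.00672 for CEBPG and −0.0730 to 0.49 for STC2. With shAHR#3 they ran from −0.21 to 0.22 for STC2, −0.34 to 0.48 for ALDH1L2 and −0.0551 to 0.00828 for ATF4. For the mean of both they ran from −0.10 to 0.0475 for SESN2, −0.00299 to 0.0421 for MTHFD2, −0.57 to 0.0442 for ALDH1L2, −0.0287 to 0.0246 for MTHFD1L, −0.10 to 0.33 for STC2, −0.12 to 0.0706 for DDIT3, −0.0136 to 0.00525 for AARS1 and −0.15 to 0.0242 for CTH. Between constructs they ran from −0.0272 to 0.0340 for ATF4, −0.46 to 0.10 for STC2 and −0.0454 to 0.18 for SLC1A4. For the mean of both, the calls of SLC43A1 (0.17, adjusted p 0.137, without control replicate 1) and NUPR1 (0.32, adjusted p 0.085, without control replicate 3) were also lost; the cause was not tested. Depth limits genes under about 50 counts per library, here ASNS, SESN2, STC2 and ALDH1L2. It also limits PHGDH in control and with shAHR#2, and CHAC1 in control replicate 1 (37 counts).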

Other observations

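GDF15, a secreted stress cytokine and ATF4 target outside the 40 genes, was chosen after its values were seen. It was at 2.37, 1.60 and 1.87 CPM in control, 1.13, 0.899 and 0.949 with shAHR#2, and 2.78, 3.38 and 3.42 with shAHR#3. No library of one group overlapped with another. These levels rest on 42, 32 and 37 counts in control, 21, 14 and 15 with shAHR#2, and 54, 66 and 70 with shAHR#3. The fits that leave out a library were not read for this gene. Against control GDF15 was at −0.95 ± 0.27 (adjusted p 0.00218) under shAHR#2 but at 0.72 ± 0.21 (adjusted p 0.0037) under shAHR#3. The constructs differed by 1.67 ± 0.25 (adjusted p 5.19e-07) in edgeR.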
